A study of Mus musculus with 4 samples.

Results

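The kinesins are microtubule motors, and 42 genes of this superfamily, with the light chains and the associated protein that motors carry, were examined in the testis of WT and *Ccnyl1*-/- mice. A gene was read from probe sets whose platform annotation gave exactly 1 gene symbol, and that symbol had to be one of the 42. Of these genes, 41 had at least 1 such probe set, 107 probe sets in all, among 18193 genes on the array. *Klc2* had none and was not analysed here. Each gene was represented by its probe set with the highest mean signal, and 38 of the 41 genes reached the minimum mean signal of 32 needed for the test, among 15268 genes tested.

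RNA came from whole testes of C57BL/6 mice aged 2 months, 2 WT and 2 *Ccnyl1*-/- (KO), with 1 Affymetrix mouse genome array per mouse. *Ccnyl1* encodes cyclin Y-like 1, a cyclin found at the membrane of germ cells. The knockout carries the KO-first tm1a allele of the European mutagenesis program, in which a LacZ cassette interrupts the gene in every cell of the body. Mice sharing a genotype are labelled as biological replicates, so a p-value rests on the spread between mice, of which there were few. The moderated test (limma) also borrows that spread from other probe sets of similar signal. Signals are MAS 5.0 intensities on a linear scale, and differences are log2 fold changes, KO over WT, of log2(signal + 16), which understates the change of dim probe sets. A whole testis mixes all germ cell stages with somatic cells, so fewer cells of a type and less RNA per cell cannot be told apart.

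Kinesins hydrolyse ATP to walk along microtubules, mostly toward the plus end, and a few families instead take microtubules apart or walk toward the minus end. In the testis they build the mitotic and meiotic spindles, carry the parts of the sperm flagellum by intraflagellar transport, and move along the manchette, the skirt of microtubules that surrounds the nucleus of an elongating spermatid. Kinesin-1 pairs a heavy chain that walks with a light chain that holds the cargo, kinesin-2 drives transport in cilia, kinesin-3 carries vesicles, and kinesin-14 has its motor at the other end of the protein.

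*Ccnyl1* itself was read at 2256 and 2425 in the WT mice and at 921 and 969 in the KO mice. The genotypes were far apart, and the KO signal was 40.4% of the WT signal, a log2 fold change of -1.29 (95% interval -1.50 to -1.09, limma adjusted p = 0.00463). The value was the same but did not pass with eBayes without the trend (adjusted p = 0.596, limma) or with the methods' t-test (adjusted p = 0.723). Where its probe set lies relative to the LacZ cassette was not determined here, so the remaining signal does not tell how much normal transcript was left. The 4 arrays were alike in brightness, with median signals of 197 to 209 and between 26.4% and 29.1% of probe sets under the minimum. The 14 genes that mark elongating spermatids summed to between 325073 and 340198 in the 4 mice, and none of the genes in 12 lists of cell type markers passed the test. At an unadjusted p under 0.05 (limma), 2 of these 14 genes were higher and 4 lower in KO, beside 2.85% and 3.45% of all genes. Of the 14 log2 fold changes 10 were negative. The genotypes did not overlap for 9 of the 14, beside 36.1% of all genes. The list medians ran from -0.15 for 12 macrophage genes to 0.45 for 2 epididymal genes on the log2 scale. The summed signal of the 6 Leydig cell genes varied with the mouse, at 7559 and 4283 in WT and 9680 and 5589 in KO. The part of either list in the kinesin values was not tested.

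The promoters of 4 kinesins are shown because they carry letters found in most windows of the spindle motors, or a letter string that few promoters hold. RefSeq windows of GRCm38.p6, from 250 bases before to 50 bases after a transcript start, were matched by symbol for 34 of the 42 genes (38 windows). *Kif5a*, *Kif5b*, *Kif13b*, *Kif20a*, *Kif21b*, *Kifc2*, *Kifc3* and *Klc2* had no entry in the table. Each window was searched on both strands for the core of the cell cycle genes homology region (CHR, TTTGAA), for the CCAAT box (CCAAT) and for the cAMP response element (CRE, TGACGTCA), and the matches are in capitals below, with the reverse complements TTCAAA and ATTGG where the match was on the other strand. No matches overlapped. The windows lie at chr19:37376132-37376431 (plus strand) for *Kif11*, chr9:61946750-61947049 (minus strand) for *Kif23*, chr2:109280488-109280787 (plus strand) for *Kif18a* and chr4:138262001-138262300 (plus strand) for *Kif17*, each written 5′ to 3′ in the direction of its gene.
Kif11: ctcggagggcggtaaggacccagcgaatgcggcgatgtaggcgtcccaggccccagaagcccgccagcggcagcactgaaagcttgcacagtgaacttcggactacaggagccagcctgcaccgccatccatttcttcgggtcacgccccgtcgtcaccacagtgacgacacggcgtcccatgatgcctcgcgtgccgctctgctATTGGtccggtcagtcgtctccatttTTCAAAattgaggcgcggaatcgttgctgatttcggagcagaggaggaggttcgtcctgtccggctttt
Kif23: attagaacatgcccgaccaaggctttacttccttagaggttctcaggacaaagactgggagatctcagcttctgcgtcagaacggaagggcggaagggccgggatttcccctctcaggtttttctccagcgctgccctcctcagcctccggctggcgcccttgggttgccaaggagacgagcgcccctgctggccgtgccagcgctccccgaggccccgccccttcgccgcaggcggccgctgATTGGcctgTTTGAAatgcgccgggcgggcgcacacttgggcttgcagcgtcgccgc
Kif18a: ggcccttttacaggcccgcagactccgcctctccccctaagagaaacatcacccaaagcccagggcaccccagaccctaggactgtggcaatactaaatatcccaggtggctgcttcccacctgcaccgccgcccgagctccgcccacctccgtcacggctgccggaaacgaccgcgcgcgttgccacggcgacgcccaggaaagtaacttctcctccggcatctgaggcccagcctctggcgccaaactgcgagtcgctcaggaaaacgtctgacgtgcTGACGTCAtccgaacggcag
Kif17: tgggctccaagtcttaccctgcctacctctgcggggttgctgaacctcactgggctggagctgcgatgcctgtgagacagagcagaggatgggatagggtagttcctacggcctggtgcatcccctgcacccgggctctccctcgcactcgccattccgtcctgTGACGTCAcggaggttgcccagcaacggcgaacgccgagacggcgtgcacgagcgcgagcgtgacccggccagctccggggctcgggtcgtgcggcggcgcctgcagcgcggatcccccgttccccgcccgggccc

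The CHR core was present in 8 of the 10 windows of spindle kinesins, against 17.89% of all 32851 promoter windows and 12 of the 38 kinesin windows. *Kif18a* and *Kif2b* were the exceptions. The CHR is known from genes that are transcribed late in the cell cycle, where it often stands close to a CCAAT box, as in the windows of *Kif11* and *Kif23*. A CCAAT box was found in 6 of the 10 spindle windows and in 37.41% of all windows. The CRE, to which the germ cell activator CREM binds, was found in 4 kinesin windows (*Kif17*, *Kif18a*, *Kif5c* and *Klc1*) and in 1.79% of all windows. These matches describe letters in a window and were not set against any binding data.

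No kinesin passed the test between the genotypes. Across the array, 0.0123% of the tested probe sets passed at an adjusted p under 0.05 (4 of 32438, limma), and the lowest adjusted p of a kinesin was 0.782. At an unadjusted p under 0.05, *Kif18a* and *Kif1c* were higher in KO testis, where 2.85% of all genes were, and *Klc4* was lower, where 3.45% of all genes were. The kinesins thus had 5.26% of their 38 tested genes in the first direction and 2.63% in the other, which are counts too small to read against those shares. Log2 fold changes of the 38 tested kinesins ran from -0.56 for *Kif1a* to 0.61 for *Kif1c*, 17 positive and 21 negative, with a median of -0.03 beside 0.00 for all genes. With arrays scaled to one median instead, 9 were positive and 29 negative, and at the unadjusted p 2 were higher and 6 lower. With this scaling 2269 of 32438 tested probe sets had an unadjusted p under 0.05 (limma), beside 1964 without it. The median of all genes was then -0.08.

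The size of the differences was also close to that of the array as a whole. The median absolute log2 fold change was 0.0984 for the kinesins and 0.114 for all genes. Between single mice of a genotype, where nothing is averaged, the median absolute difference of the kinesins was 0.151 in WT and 0.127 in KO. The 95% interval lay within 2-fold in either direction for 35 of the 38 kinesins (92.1%), a condition that 83.4% of all genes met. *Kif1a*, *Kif1c* and *Kifc2* were the exceptions, and their intervals reached past 2-fold on 1 or both sides. The median half-width of the interval was 0.32 on the log2 scale. With these 4 arrays an interval of that width does not separate a smaller difference from no difference. The intervals were not adjusted for the number of probe sets tested, so the half-width is not the limit of the adjusted test. Larger differences did not pass that test either, such as *Kif1c* at 0.61, *Kif1a* at -0.56 and *Kif18a* at 0.46 (adjusted p = 0.797, 0.820 and 0.782, limma).

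**Figure D1:**
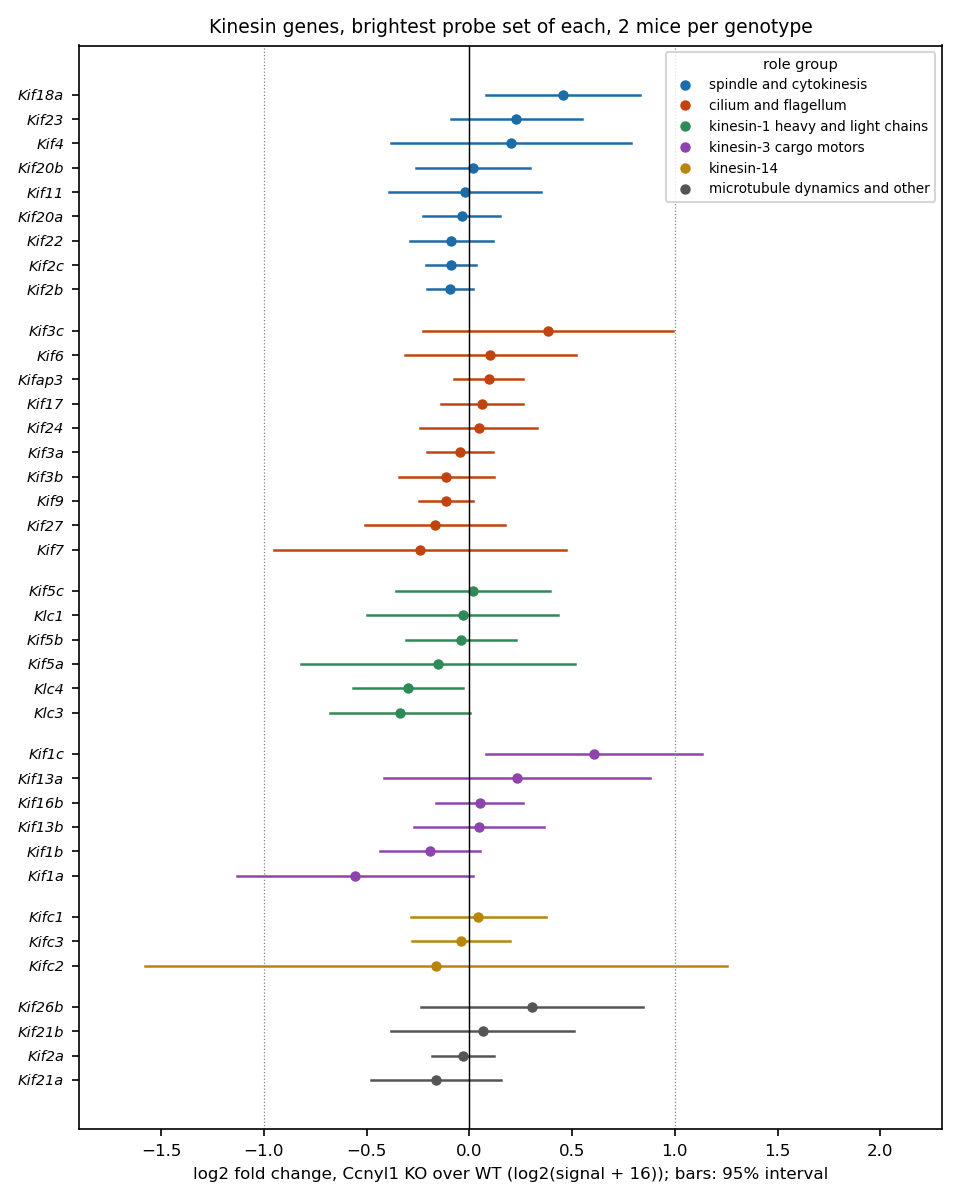
Log2 fold change of each tested kinesin, KO over WT, by role group (points), with the 95% interval of the moderated test (bars), from 2 mice per genotype; dotted lines mark a 2-fold change. Most intervals cross 0, those of *Kif18a*, *Kif1c* and *Klc4* do not, and that of *Kifc2* is the widest.

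The signals of the 2 WT mice and of the 2 KO mice did not overlap for 13 of the 38 tested kinesins (34.2%, against 36.1% of all genes). In 5 of them both KO mice were higher (13.2%, against 17.7% of all genes), namely *Kif18a*, *Kifap3*, *Kif1c*, *Kif16b* and *Kif26b*. In the other 8 both KO mice were lower (21.1%, against 18.3% of all genes), namely *Kif2b*, *Kif2c*, *Kif9*, *Klc3*, *Klc4*, *Kif1a*, *Kif1b* and *Kif2a*. Both shares stood near those of all genes, and separation of the genotypes by itself was common on these arrays.

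Among the spindle and cytokinesis motors, 9 of 11 genes were tested, 4 with positive and 5 with negative log2 fold changes around a median of -0.02. *Kif18a*, a kinesin-8 that aligns chromosomes at the metaphase plate, had signals of 406 and 362 in WT and 616 and 460 in KO. Both KO mice were above both WT mice, though the KO mice differed from each other by more than the WT mice did. The log2 fold change was 0.46 (95% interval 0.08 to 0.83), with an unadjusted p of 0.0226 and an adjusted p of 0.782 (limma), so it did not pass. Without KO replicate 1 it was 0.25. A second probe set of the gene was read between 0.791 and 19.6 and was too dim to test.

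*Kif23*, the motor of the centralspindlin complex that assembles the midzone and the bridge between dividing cells, was read at 662 and 559 in WT and 788 and 651 in KO. The lower KO mouse lay below the higher WT mouse, so the genotypes overlapped. Its log2 fold change was 0.23 (95% interval -0.09 to 0.55). The other tested probe set gave 0.28, with both KO mice above both WT mice. Male germ cells keep such bridges open after division. *Kif11*, the tetrameric motor that pushes the spindle poles apart, had signals of 232 and 249 in WT and 248 and 226 in KO. The 4 mice lay together, with a log2 fold change of -0.02 (95% interval -0.39 to 0.35), and its 3 probe sets lay between -0.11 and -0.02.

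*Kif2b*, a kinesin-13 that takes apart microtubules at kinetochores, gave 13030 and 12468 in WT and 11696 and 12193 in KO. Both KO mice were lower by a small margin, and the log2 fold change of -0.09 (95% interval -0.21 to 0.02) was the lowest of the 9 tested genes of the group. *Kif2c*, of the same family, was separated in the same way at -0.09, but 2 of its 4 probe sets gave positive values. The chromokinesin *Kif22* gave -0.09, *Kif4*, which shortens the overlap of antiparallel microtubules with Prc1, gave 0.20, *Kif20a*, which brings the chromosomal passenger complex to the midzone, gave -0.04, and *Kif20b*, a cytokinesis motor, gave 0.02. In the last 4 the genotypes overlapped.

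The remaining spindle genes were too dim for the test. *Kif15*, which can stand in for *Kif11* in keeping a spindle bipolar, was read at 39.6 and 45.9 in WT and at 11.2 and 5.51 in KO. *Kif14*, the partner of citron kinase in cytokinesis, was read at 22.8 and 24.1 in WT and at 38.5 and 33.4 in KO. Both were separated between the genotypes, in opposite directions, at signals where the arrays say little. With no minimum signal the log2 fold changes were -1.28 for *Kif15* (unadjusted p = 0.00848, adjusted p = 0.829, limma) and 0.39 for *Kif14*, and neither passed.

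The motors of the cilium and flagellum, 10 genes that were all tested, were balanced, with 5 positive and 5 negative log2 fold changes and a median of 0.00. *Kif3a*, a motor subunit of the kinesin-2 that drives intraflagellar transport and is needed to build the sperm tail, gave 3170 and 3099 in WT and 3123 and 2955 in KO. The genotypes overlapped, and the log2 fold change was -0.04 (95% interval -0.20 to 0.11). Its other tested probe sets gave -0.10, -0.17 and 0.05, and in the first 2 both KO mice were lower. The other subunits of this trimer, *Kif3b* and the cargo-binding *Kifap3*, gave -0.11 and 0.09. The 3 other probe sets of *Kif3b* gave 0.14, 0.01 and 0.14, and in 2 of them both KO mice were higher. *Kifap3* was higher in both KO mice, at 2171 and 2147 in WT and 2293 and 2318 in KO, while its second probe set gave -0.03.

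*Kif17*, a kinesin-2 of the testis that carries the CREM coactivator Fhl5 out of the nucleus of round spermatids, had signals of 5278 and 4392 in WT and 4974 and 5084 in KO. The KO mice lay between the WT mice. The log2 fold change was 0.06 (95% interval -0.14 to 0.26), and its 3 probe sets ranged from -0.01 to 0.06, so that a change of the size seen for *Ccnyl1* lay far outside the interval. Its cargo *Fhl5*, named after its value was seen, gave -0.04. *Kif9*, a motor of the sperm axoneme linked to motility, was read at 5523 and 5525 in WT and 5177 and 5019 in KO. Both KO mice were lower by a small margin, with a log2 fold change of -0.12 (95% interval -0.25 to 0.02, adjusted p = 0.830, limma).

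*Kif3c*, which pairs with *Kif3a* and is best known from neurons, had the highest value of the group, with 104 and 177 in WT and 158 and 210 in KO. The mice overlapped, the log2 fold change was 0.38 (95% interval -0.23 to 0.99), and its other probe set gave -0.46. *Kif7*, a regulator of Hedgehog signalling at the tip of the primary cilium, had the lowest, with 109 and 83.5 in WT and 58.1 and 104 in KO. One KO mouse lay between the WT mice and the other below both, and the log2 fold change of -0.24 had a 95% interval of -0.95 to 0.47. *Kif27* and *Kif6* gave -0.17 and 0.10, and *Kif24*, which restrains cilium formation at the centriole, gave 0.05. In the brightest probe sets of these 3 genes the genotypes were not separated. The 2 other tested probe sets of *Kif24* were dim and gave -0.42 and -0.32, with both KO mice lower in each.

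Kinesin-1 had 1 positive and 5 negative log2 fold changes among 6 tested genes, with a median of -0.10. The light chains *Klc3* and *Klc4* were lower in both KO mice. *Klc3*, a light chain of spermatids that binds the outer dense fibres and mitochondria of the sperm tail, was read at 1055 and 1199 in WT and at 763 and 1031 in KO. The higher KO mouse came close to the lower WT mouse. The log2 fold change was -0.34 (95% interval -0.68 to 0.00) with an adjusted p of 0.820 (limma), and without KO replicate 1 it was -0.12, while without KO replicate 2 it was -0.55.

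*Klc4*, a light chain found in many tissues, gave 605 and 610 in WT and 487 and 493 in KO. Here the mice of each genotype lay close together and the genotypes apart. The log2 fold change was -0.30 (95% interval -0.57 to -0.03), with an unadjusted p of 0.0319 and an adjusted p of 0.797 (limma). It stayed between -0.31 and -0.29 when any 1 mouse was left out, which only restates how close the mice of each genotype were. The second probe set of *Klc4*, read at 103 and 124 in WT and at 109 and 134 in KO, gave 0.09, so the gene's own probe sets differed in sign. *Klc1* gave -0.03.

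Of the heavy chains, *Kif5b*, the form used by most cells, was read at 709 and 658 in WT and at 631 and 700 in KO, with overlapping genotypes and a log2 fold change of -0.04 (95% interval -0.31 to 0.23). Its other 5 tested probe sets all gave positive values, up to 0.36. *Kif5c*, a neuronal form, gave 245 and 264 in WT and 237 and 281 in KO, a log2 fold change of 0.02 (95% interval -0.36 to 0.39). The KO mice spanned the WT mice. *Kif5a*, also neuronal, gave -0.15 from a dim probe set.

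**Figure D2:**
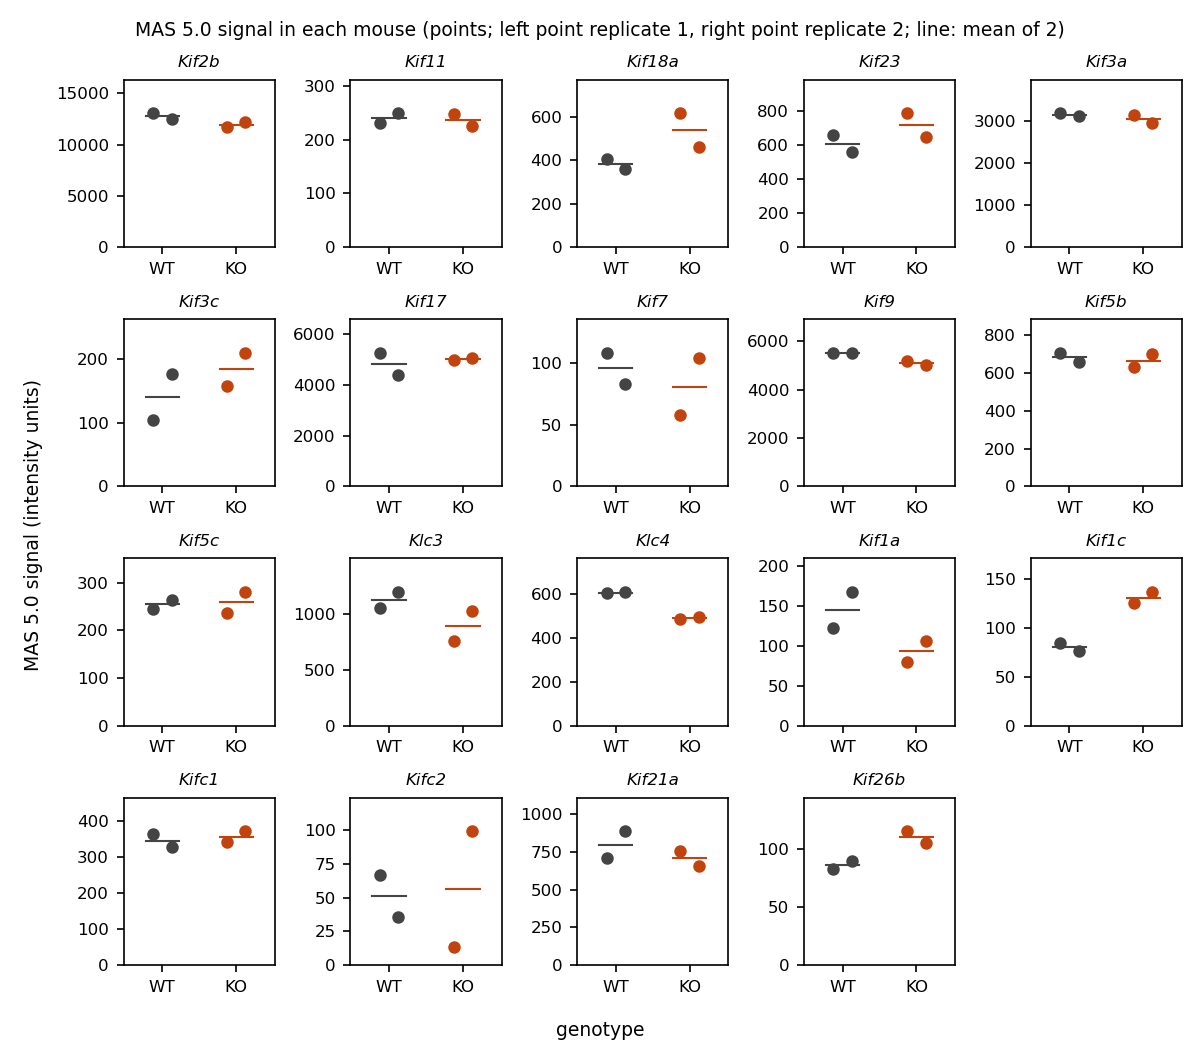
MAS 5.0 signal (intensity units, axis from 0) of the brightest probe set in each of the 4 mice for 19 kinesins; points are mice and lines are means of 2. *Klc4* and *Kif1c* show tight, separated genotypes, *Kif17* and *Kif11* overlap, and *Kifc2* has KO mice at 13.5 and 99.5 on both sides of WT.

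The kinesin-3 motors, which carry vesicles and organelles, held both ends of the range of the tested kinesins. *Kif1c*, a motor of Golgi and integrin transport, had signals of 84.9 and 76.5 in WT and 126 and 137 in KO. Both KO mice were well above both WT mice. The log2 fold change of 0.61 (95% interval 0.08 to 1.13) was the highest of the 38 tested kinesins, with an unadjusted p of 0.0283 and an adjusted p of 0.797 (limma). Its 3 other probe sets were dimmer and gave 0.30, 0.02 and -0.29. *Kif1a*, the motor of synaptic vesicle precursors, was read at 122 and 168 in WT and at 80.3 and 106 in KO. The genotypes did not overlap, and the log2 fold change of -0.56 (95% interval -1.13 to 0.02, adjusted p = 0.820, limma) was the lowest of the 38 tested kinesins. A second probe set of *Kif1a* was too dim to test. It was higher in both KO mice, at 3.50 and 9.53 in WT and 50.4 and 17.5 in KO.

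*Kif1b*, which moves mitochondria and synaptic vesicle precursors, gave -0.19 from its brightest probe set, with 1077 and 990 in WT and 857 and 947 in KO. Its 7 probe sets disagreed, from -0.24 to 0.52, and the one at 0.50 had an unadjusted p of 0.0428 (limma). *Kif13a*, *Kif13b* and *Kif16b*, motors of endosomes and the cell cortex, gave 0.23, 0.05 and 0.05. A dim probe set of *Kif13b* lay at the other end, at 44.8 and 62.8 in WT and 7.04 and 21.9 in KO, for a log2 fold change of -1.23 (unadjusted p = 0.0345, adjusted p = 0.805, limma). The group as a whole had 4 positive and 2 negative values and a median of 0.05.

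The kinesin-14 genes walk to the minus end. *Kifc1*, which focuses spindle poles and in spermatids is found on the acrosome and manchette, was read at 362 and 327 in WT and at 340 and 371 in KO. The genotypes overlapped, with a log2 fold change of 0.04 (95% interval -0.28 to 0.37). *Kifc3*, a motor of cell junctions, gave -0.04. *Kifc2*, best known from neurons, gave 66.8 and 35.7 in WT and 13.5 and 99.5 in KO. The KO mice were the lowest and the highest of the 4, and the log2 fold change of -0.16 (95% interval -1.58 to 1.25) had the opposite sign to the difference of the mean signals, 51.2 in WT and 56.5 in KO.

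Among the last 5 genes, 4 were tested, with 2 positive and 2 negative values and a median of 0.02. *Kif21a*, which slows microtubule growth at the cell cortex, was read at 709 and 887 in WT and at 758 and 659 in KO. The mice overlapped, with a log2 fold change of -0.16 (95% interval -0.48 to 0.16), and its other probe sets gave 0.26 and 0.59. *Kif26b*, an atypical kinesin known from kidney development, gave 82.8 and 89.3 in WT and 115 and 105 in KO. Both KO mice were higher, with a log2 fold change of 0.30 (95% interval -0.23 to 0.84). *Kif2a*, a kinesin-13, and *Kif21b* gave -0.03 and 0.06. *Kif26a* was too dim to test, at 12.9 and 33.5 in WT and 9.54 and 65.1 in KO.

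Probe sets of 1 kinesin rarely shared a direction. Among the 23 kinesins with several tested probe sets, only *Kif11*, *Kif23*, *Kif5a* and *Kif16b* had a single sign, 4 of 23, while 40.7% of 6739 genes with several tested probe sets did. The number of probe sets per gene differed between the kinesins and was not matched. Over all 92 tested kinesin probe sets, 48 gave positive and 44 negative values, none passed the test, and 5 had an unadjusted p under 0.05 (limma), as 6.05% of all tested probe sets did. A probe set can read only some of a gene's transcripts, and the platform annotation does not say which.

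**Figure D3:**
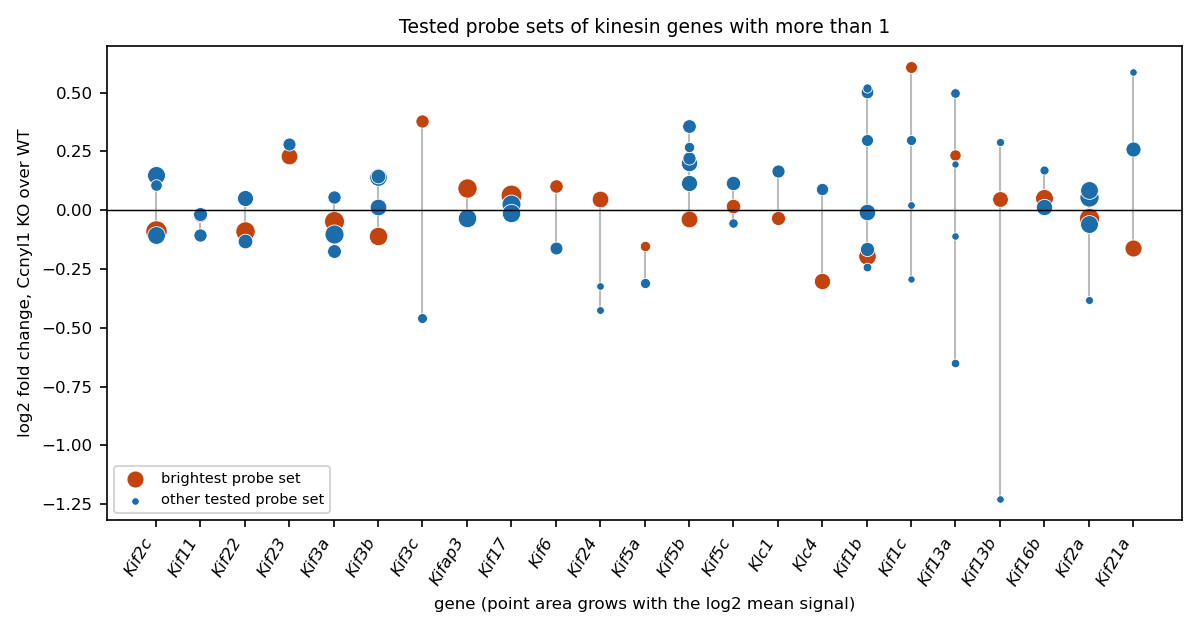
Log2 fold change, KO over WT, of every tested probe set of the 23 kinesins with more than 1 (points; area grows with the log2 mean signal; the brightest of each gene in red). For most genes the probe sets lie on both sides of 0, and the dim probe set of *Kif13b* at -1.23 is the farthest.

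The sign of the values was also counted by the brightness of the probe set, without a test between the ranges. Of the 14 kinesins with a mean signal of at least 1000, 10 had negative log2 fold changes, and of the 4537 genes as bright, 2729 did. Of the 19 kinesins with a mean signal from 100 to 1000, 8 were negative, and of 7301 genes 3394 were. Of the 5 kinesins under 100, 3 were negative, and of 3430 genes 1533 were. The bright kinesins include *Kif2b*, *Kif2c*, *Kif3a*, *Kif9*, *Kif17* and *Klc3*. The interval was also narrower where the signal was high, with a median half-width of 0.19 for the bright kinesins and 0.67 for the 5 under 100.

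The kinesins were also compared mouse by mouse. Among the 38 tested kinesins, WT replicate 1 held the highest signal for 11, WT replicate 2 for 13 and each KO mouse for 7, where each mouse held the highest signal for 22.6% to 26.5% of all genes. The lowest signal was in WT replicate 1 for 6, in WT replicate 2 for 10, in KO replicate 1 for 12 and in KO replicate 2 for 10, where each mouse held the lowest signal for 24.4% to 25.8% of all genes. By role, kinesin-1 deviated from its own mean over the 4 mice by 0.06 and 0.08 in WT and by -0.11 and -0.03 in KO on the log2 scale. The spindle motors deviated by -0.04 and -0.03 in WT and by 0.05 and 0.02 in KO. The motors of the cilium and flagellum gave -0.03 and 0.03 in WT and -0.05 and 0.05 in KO. Kinesin-14 gave 0.18 and -0.13 in WT and -0.36 and 0.30 in KO. Kinesin-3 gave 0.03 and -0.06 in WT and -0.01 and 0.04 in KO. The group of microtubule dynamics and other motors gave -0.13 and 0.08 in WT and 0.06 and -0.02 in KO. These last 4 groups differed more within a genotype than between the genotypes.

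None of the related genes in 4 lists passed the test. The genotypes did not overlap for 2 of 4 other kinesins, 9 of 24 genes of dynein and dynactin, 10 of 19 cargo adaptors (3 higher in KO and 7 lower) and 14 of 20 partners of the spindle motors (9 higher and 5 lower), beside the 36.1% of all genes. Kinesins outside the list of 42 were tested for 4 of 8 genes, all with negative values and a median of -0.19, from *Stard9*, a centrosomal motor, at -0.30 (95% interval -0.61 to 0.02) to *Cenpe*, the kinetochore motor, at -0.04. Cytoplasmic dynein and dynactin, which walk the other way, gave 11 positive and 13 negative values among 24 genes, with a median of -0.01, from *Nde1*, a dynein regulator, at -0.25 to the dynactin subunit *Dctn6* at 0.27. *Dctn6* (unadjusted p = 0.0136, limma) and the dynactin subunit *Dctn2*, at -0.13 (unadjusted p = 0.0429, limma), had opposite signs within the same complex.

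Cargo adaptors gave 8 positive and 11 negative values among 19 genes, with a median of -0.04, from *Trak2*, a mitochondrial adaptor, at -0.29 to *Clstn3*, a calsyntenin, at 0.54 (unadjusted p = 0.0499, limma). *Odf1*, an outer dense fibre protein that *Klc3* protein binds, was lower in both KO mice, at 22143 and 22059 in WT and 20490 and 19706 in KO, with a log2 fold change of -0.14 (95% interval -0.23 to -0.05) and an adjusted p of 0.724 (limma). Partners of the spindle motors gave 14 positive and 6 negative values among 20 genes, with a median of 0.05, from *Cit*, citron kinase, at -0.24 to *Aurkb*, the kinase of the chromosomal passenger complex, at 0.22. *Dctn2* and *Odf1* were named after their values were seen.

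**Figure D4:**
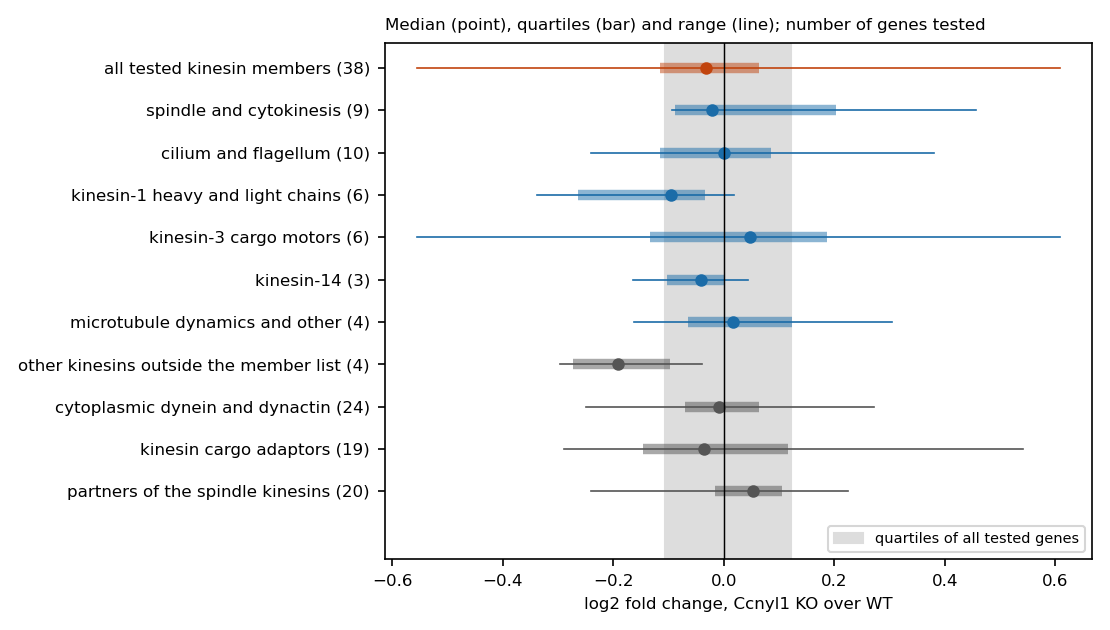
Median (point), quartiles (bar) and range (line) of the log2 fold change, KO over WT, for all tested kinesins (red), the 6 role groups (blue) and 4 lists of related genes (grey); the grey band spans the quartiles of all tested genes. Every median except that of the 4 kinesins outside the list lies inside the band.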

How the data were processed

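Testis RNA of 2 WT and 2 *Ccnyl1*-/- mice was hybridised to 1 Affymetrix array per mouse. The values deposited by the authors are MAS 5.0 signals, a linear intensity per probe set, background-corrected with mismatch probes and scaled by 1 factor per array; the submitters' processing notes name MAS5. The trimmed mean of each array is 500.0 (2% trimmed at each end), a different target from the one the methods state, and the scale was kept. Levels of different probe sets were not read as relative amounts of transcript, because each has its own probe effects. They were used to choose a gene's probe set, to apply the minimum, to group genes by brightness and in summed signals. The depth of an array has no read count, and the number of mice limits the precision. The file holds no column of other samples and none of the authors' own comparisons.

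From the deposited signals, log2(signal + 16) was computed and fitted in R 4.3.3 with limma 3.58.1 (lmFit on genotype alone, eBayes with a trend) over 32438 probe sets with a mean signal of at least 32, leaving out 64 controls among 45101 probe sets. Benjamini-Hochberg adjustment ran over all tested probe sets with a threshold of 0.05. The procedure was tested on simulated data. Symbols of all 41 genes were matched to RefSeq by gene identifier.

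The members and lists were chosen with earlier results of these data known. Given mouse by mouse are *Ccnyl1*, the highest and lowest member of each role group, members at an unadjusted p under 0.05, and *Kif3a*, *Kif17*, *Klc3*, *Kifc1*, *Kif9*, *Kif5b*, *Kif11* and *Kif23*, 19 members in all; values by mouse of other genes were added after they were seen. In related lists the highest and lowest genes are named. Alternatives were the offset (none, 32), the minimum (none, 100), quantile normalization, one median signal for all arrays, eBayes robust or with no trend, the replicate number as a block, the methods' t-test, leaving out probe sets whose names end in _a_at, _s_at or _x_at, the mean over a gene's probe sets, and leaving out each mouse.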

Additional observations from a re-analysis of the deposited data

How the results depend on the processing

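No kinesin passed the test under any alternative that has a test. The 35 intervals within 2-fold became 31 with no offset, 34 with quantile normalization and 30 to 33 when a mouse was left out. The kinesins at an unadjusted p under 0.05 numbered 3 (limma), but 8 with arrays scaled to one median (limma) and 5 with the methods' t-test. Of the 32438 tested probe sets, 1964, 2269 and 1900 were under it in the same order. With eBayes without the trend only *Klc4* and *Kif1c* were under it, beside 1906 probe sets (limma). *Kif18a* was not under it there or with the methods' t-test. Kinesins with separated genotypes numbered 13, but 8 of the 32 tested without the suffixed probe sets. They numbered 24 to 28 without 1 mouse, where fewer samples separate more easily. The median log2 fold change of the kinesins, -0.03, became -0.11 with one median, -0.0063 with the mean of all probe sets, and -0.052 to 0.025 without 1 mouse. Probe sets past the test numbered 4, but 7 with one median, 0 without the trend or with the methods' t-test, and 6 to 55 without 1 mouse. *Ccnyl1* kept its value of -1.29 but not its call without the trend (adjusted p = 0.596, limma) or with the methods' t-test (adjusted p = 0.723).

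The labels do not say whether same-numbered mice were paired. Their deviations correlated at 0.014 over the tested probe sets, a value that cannot show whether some genes vary with the replicate number. The summed Leydig cell signal was higher in replicate 1 than in replicate 2 of both genotypes. With the replicate block, 5 kinesins had an unadjusted p under 0.05 (limma), as did 2362 of the 32438 tested probe sets. Of the kinesins 0 passed the test, and 14 probe sets passed. The cause of these shifts was not tested.

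Scaling to one median moved the median of all genes to -0.08, left 9 kinesins positive and 29 negative, and turned *Kif20b* to -0.058, *Kif17* to -0.016, *Kif24* to -0.030, *Kif5c* to -0.054, *Kif13b* to -0.029, *Kif16b* to -0.027, *Kifc1* to -0.031 and *Kif21b* to -0.0082. Quantile normalization turned *Kif5c* to -0.035. Without the suffixed probe sets *Kif6* became -0.16 and *Kif2a* 0.054. Leaving out 1 mouse turned 18 kinesins, and 20 kept their sign. The ranges of those that turned were -0.15 to 0.56 for *Kif4*, -0.084 to 0.041 for *Kif11*, -0.097 to 0.021 for *Kif20a*, -0.15 to 0.19 for *Kif20b*, -0.19 to 0.015 for *Kif22*, -0.070 to 0.19 for *Kif17*, -0.59 to 0.11 for *Kif7*, -0.075 to 0.17 for *Kif24*, -0.40 to 0.059 for *Kif27*, -0.11 to 0.034 for *Kif5b*, -0.096 to 0.13 for *Kif5c*, -0.25 to 0.18 for *Klc1*, -0.036 to 0.50 for *Kif13a*, -0.060 to 0.15 for *Kif13b*, -0.027 to 0.11 for *Kifc1*, -1.15 to 0.82 for *Kifc2*, -0.092 to 0.0096 for *Kifc3* and -0.14 to 0.26 for *Kif21b*. Of those that kept it, these moved by over 1.5 times: -0.13 to -0.062 for *Kif2b*, 0.25 to 0.66 for *Kif18a*, 0.094 to 0.36 for *Kif23*, -0.085 to -0.0051 for *Kif3a*, -0.22 to -0.0055 for *Kif3b*, 0.039 to 0.72 for *Kif3c*, 0.020 to 0.19 for *Kif6*, -0.26 to -0.044 for *Kif5a*, -0.55 to -0.12 for *Klc3*, -0.76 to -0.35 for *Kif1a*, -0.26 to -0.12 for *Kif1b*, 0.017 to 0.083 for *Kif16b*, -0.046 to -0.017 for *Kif2a* and -0.32 to -0.0040 for *Kif21a*.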
